A study of Mus musculus with 8 samples.

Results

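In freshly isolated crypts of the small intestine (SI) and colon (COL), 10 genes of the ETS family of transcription factors were described: Etv1, Etv4, Etv5, Etv6, Ets1, Ets2, Elf1, Elf3, Ehf and Elk3. Crypts are the glandular pockets of the gut lining that hold its stem and progenitor cells. The genes were listed by symbol, with the contrast of SI and COL crypts in view, and all 10 were found among the 45706 genes of the count tables. Another 17 ETS genes served for comparison. RNA-Seq libraries came from 4 C57BL/6N mice of wild type genotype, 2 female (mice 1 and 4) and 2 male (mice 2 and 3), whose age is not given in the sources used here. An SI and a COL library came from each animal, so that SI1 and COL1 share a donor. The labels number the fourth mouse as donor mouse 5. Crypts were released by EDTA chelation and carried no transgene, and no treatment is given in the labels. In the study's methods for growing organoids, crypts came from the proximal part of the SI after the villi had been scraped off. There, the colon was kept longer in stronger EDTA. The RNA-Seq methods name freshly isolated crypts and do not repeat these details.

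ETS factors share a DNA-binding domain that reads a GGAA core, and differ in their activating or repressing partner domains and in the cells that express them. Etv1, Etv4 and Etv5 form the PEA3 group, whose transcription and activity are raised by receptor tyrosine kinases through the kinase ERK. The repressor Capicua (Cic) holds PEA3 genes down until ERK inactivates it, and the ubiquitin ligase COP1 marks PEA3 proteins for degradation. Elf3 and Ehf belong to an epithelium-restricted group, with known roles in epithelial differentiation.

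The libraries held 15969428 (COL2) to 32908060 (COL4) counts. Levels are given as CPM, read counts relative to the library size after TMM scaling, which sets most genes to no change between libraries. The scaling factors were 0.727 to 0.798 in SI and 1.01 to 1.45 in COL. The share of mitochondrial counts was 22.7 to 50.8% in SI2, SI3, COL1 and COL2 and 4.83 to 7.35% in the other 4 libraries. Tissue identity was checked on marker genes: the 6 enterocyte genes summed to 45579 to 107180 CPM in SI and 12.3 to 137 CPM in COL, and of the 6 colonocyte genes 4 were called higher in COL and 1, Ceacam20, higher in SI (430 against 90.1 CPM on average). SI1 stood apart, with the lowest summed stem cell (81.2 CPM against 345 to 500 in the other SI libraries), proliferation (120 against 321 to 524 CPM) and Paneth cell markers (567 against 1726 to 4008 CPM), and the highest T cell markers (693 against 198 to 457 CPM). Between the tissues, the summed stem cell markers were 81.2 to 500 CPM in SI and 429 to 555 CPM in COL. Of these 8 genes Olfm4 was called higher in SI, and Slc12a2 and Prom1 higher in COL. The part of cell makeup in the ETS differences was not tested. In such bulk libraries, fewer cells of a type and less RNA per cell cannot be told apart.

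The clearest pattern was in the PEA3 group, which was far lower in SI than in COL crypts. Summed over Etv1, Etv4 and Etv5, SI1 to SI4 held 0.589, 4.29, 1.06 and 1.19 CPM, and COL1 to COL4 held 56.1, 33.1, 30.6 and 31.1 CPM. The COL mean of 37.7 ± 12.3 CPM (SD, n = 4) was 21.2 times the SI mean of 1.78 ± 1.69 CPM (SD, n = 4), and Etv5 gave most of it. SI2 weighed on this ratio, which was 39.8 without it. Since the genes were picked on this contrast, their SI and COL values are given as a description, without p-values. Only which and how many of them were called is stated.

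Etv5 (chr16:22381309-22439719 on the minus strand, GRCm38) was measured at 0.589, 1.75, 0.456 and 0.778 CPM in SI1 to SI4. In COL1 to COL4, Etv5 stood at 46.4, 18.8, 26.5 and 27.7 CPM. The lowest COL library thus lay far above the highest SI library. The log2 difference, SI minus COL, was -5.08 (SE 0.50) in edgeR, and in single mice it ran from -6.13 in mouse 1 to -3.37 in mouse 2. SI libraries held 9 to 29 Etv5 reads and COL libraries 303 to 1581, so counting error weighs on the SI values. Of the 50-base stretches of the longest Etv5 transcript, 26.8% also occur in transcripts of another gene, which is not among the genes counted.

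Etv4 (chr11:101769742-101785371 on the minus strand) showed the same separation at a lower level. It stood at 0, 0.181, 0.608 and 0.0458 CPM in SI1 to SI4, from 0 to 12 reads. COL1 to COL4 held 7.74, 9.88, 3.42 and 2.30 CPM, from 110 to 264 reads. No SI library reached the lowest COL library. The log2 difference was -4.79 (SE 0.96) and -6.28 without SI3, which held 12 of the SI reads, and all 4 mice had the lower value in SI. A count of 0 allows up to 3 counts, which is 0.136 CPM in SI1. Such limits cover counting error only.

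Etv1 (chr12:38779380-38870484 on the plus strand) was the lowest of the PEA3 genes in COL, and its SI and COL values overlapped. SI1 to SI4 held 0, 2.36, 0 and 0.366 CPM, and COL1 to COL4 held 1.97, 4.41, 0.695 and 1.13 CPM. SI2 was above 3 of the 4 COL libraries, with 39 reads, while the counts of 0 in SI1 and SI3 allow up to 0.136 and 0.152 CPM. The log2 difference of -1.60 had an SE of 1.26, moved to -3.96 without SI2 and to -0.99 without COL2, and was -2.88 with the mouse as a block. Within each mouse Etv1 was nevertheless lower in SI in 4 of 4 animals. A processed pseudogene, Gm5454, shares 17.4% of the 50-base stretches of Etv1 and had at most 5 counts in any library.

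**Figure D1:**
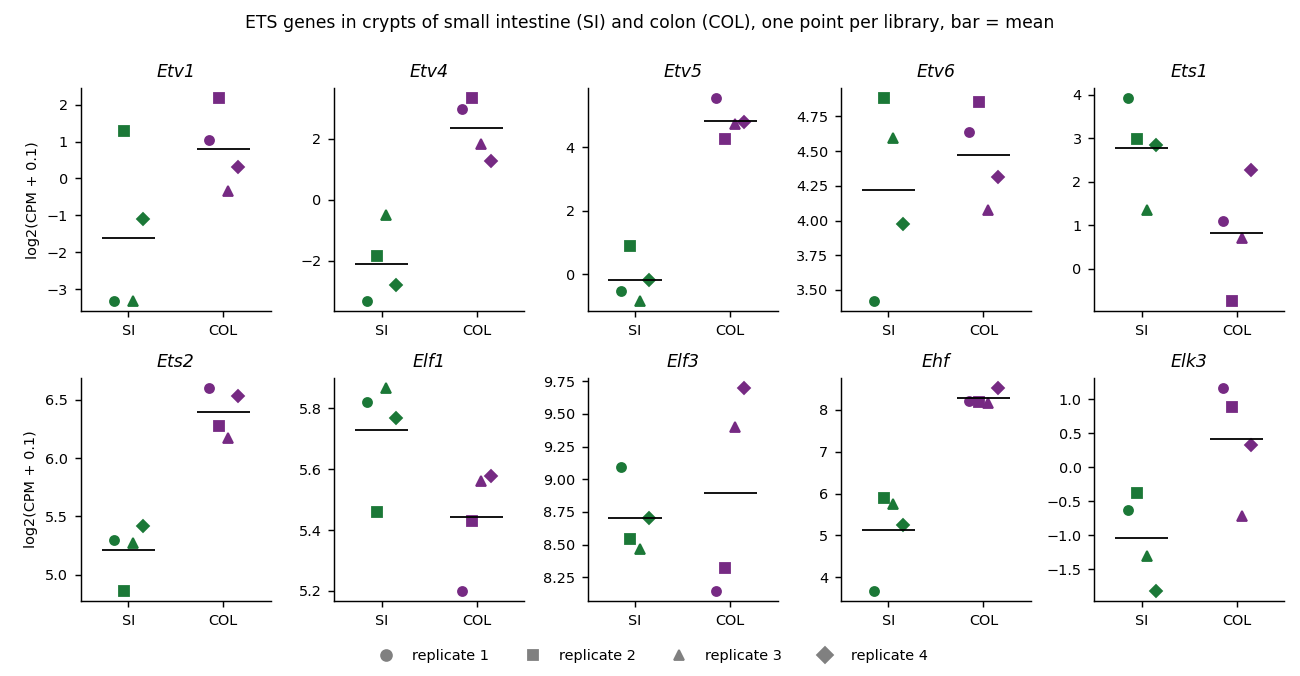
Level of each of the 10 ETS genes in every library as log2(CPM + 0.1), with SI in green and COL in purple. Marker shapes stand for the replicate (one mouse each), bars are the means of the plotted log2 values, and each panel has its own vertical scale. For Etv4, Etv5, Ets2 and Ehf the SI and COL points do not overlap, whereas those of Etv6 and Elf3 are interleaved.

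Sequence before the transcription starts was read for the PEA3 genes because Capicua and ETS factors act there. RefSeq windows (GRCm38.p6, 250 bases before to 50 bases after a start) matched 7 of the 10 genes. Etv4, Ets1 and Ehf had no entry. Etv1 and Etv5 each have 2 starts. The stretches printed here, 5′ to 3′ on the strand of the gene, are those parts before a start that hold no annotated exon (GENCODE vM21). They are chr16:22439720-22439820 (minus strand) for the first Etv5 start, chr16:22438369-22438618 (minus strand, in an intron of Etv5) for the second, and chr12:38779832-38780081 (plus strand, in an intron of Etv1) for the first Etv1 start. Capitals mark TGAATG on either strand, which forms part of the octamers read by Capicua.
Etv5 start 1: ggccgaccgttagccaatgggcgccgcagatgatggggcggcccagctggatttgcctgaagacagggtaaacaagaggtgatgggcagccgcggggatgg
Etv5 start 2: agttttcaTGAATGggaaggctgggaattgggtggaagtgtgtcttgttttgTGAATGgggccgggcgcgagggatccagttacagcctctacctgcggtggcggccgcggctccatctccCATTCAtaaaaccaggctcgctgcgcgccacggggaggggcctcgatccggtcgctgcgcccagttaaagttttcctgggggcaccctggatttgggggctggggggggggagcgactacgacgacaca
Etv1 start 1: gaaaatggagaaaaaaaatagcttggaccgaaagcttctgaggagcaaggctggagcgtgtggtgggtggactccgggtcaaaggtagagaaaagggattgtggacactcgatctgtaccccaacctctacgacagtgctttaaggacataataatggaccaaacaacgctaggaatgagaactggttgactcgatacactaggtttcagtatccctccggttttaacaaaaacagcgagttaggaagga

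The window of the second Etv5 start held TGAATG 3 times, and no other window of the 7 genes with an entry held it. Of 32851 RefSeq promoter windows of this length, 12.7% held TGAATG at least once and 0.17% at least 3 times. The full octamers TGAATGAA, TGAATGGA, TCAATGAA and TCAATGGA were in 3.84% of all windows and in none of the windows of these genes. The ETS site CCGGAAGT (3.89% of all windows) and the CArG box read by SRF (1.63%) were in none of them either. The AP-1 site TGANTCA (7.81%) was found once, in the window of the second Elf1 start. All motifs were searched on both strands and were chosen after the sequences had been read, and TGAATG overlaps with the first pair of octamers. Nothing about binding follows from these matches.

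Of the regulators of the PEA3 group, 11 genes are described here, for Capicua and its partners, the COP1 ligase and ERK signalling. In the edgeR quasi-likelihood test 0 of these 11 were called at an adjusted p below 0.05 (Benjamini-Hochberg over 14491 genes), against 28.4% of all genes tested, and 2 had an unadjusted p below 0.05. DESeq2 and limma-voom each called 1, Trib2, an adaptor of the COP1 ligase, which stood at 0.362, 1.57, 0.152 and 0 CPM in SI1 to SI4 and at 5.87, 1.12, 2.65 and 2.28 CPM in COL1 to COL4 (log2 difference -2.54, SE 1.03, adjusted p = 0.086 in edgeR). Trib2 was also called without SI2, and Atxn1, a partner of Capicua, without COL2. The best expressed were Ddb1 (log2 difference 0.59), Mapk3 (ERK1, 0.16), Atxn1 (0.82) and Trib1 (-0.44). Cic itself (-0.52, adjusted p = 0.42 in edgeR) and Cop1 (-0.57, adjusted p = 0.168 in edgeR), singled out for their roles after their values were seen, did not pass the test. The median of the 11 log2 differences was 0.10, beside -0.09 over all genes.

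Among the epithelium-restricted factors, Ehf was far higher in COL and Elf3 was not separated by tissue. Ehf (chr2:103263433-103303278 on the minus strand) was measured at 12.6, 59.3, 53.3 and 37.8 CPM in SI1 to SI4. COL1 to COL4 held 298, 294, 289 and 370 CPM. Every COL library was thus several times above the highest SI library, and the COL mean of 313 ± 38.2 CPM (SD, n = 4) was 7.67 times the SI mean of 40.8 ± 20.8 CPM (SD, n = 4). The log2 difference was -2.94 (SE 0.45), and -2.62 without SI1, the SI library with the least Ehf and the lowest stem cell and Paneth cell markers. Whether the makeup of SI1 bears on its Ehf level was not tested. Within the libraries of high mitochondrial share the difference was -2.39, and within those of low share -3.90.

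Elf3 (chr1:135253575-135258568 on the minus strand), known for its role in enterocyte and goblet cell differentiation, was the most abundant of the 10 genes. SI1 to SI4 held 546, 373, 354 and 418 CPM. COL1 to COL4 held 283, 319, 677 and 831 CPM, so that the COL libraries lay on both sides of all SI libraries. The log2 difference was -0.32 (SE 0.41) and -0.01 without COL4. It turned to 0.27 within the libraries of high mitochondrial share (SI2, SI3, COL1 and COL2) and was -0.65 within those of low share. In the 4 mice the signs were split, with 0.95 and 0.22 in mice 1 and 2 and -0.94 and -0.99 in mice 3 and 4.

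Elf1 (chr14:79481194-79582494 on the plus strand), a factor best known from blood cells but widely expressed, was nearly level between the tissues. SI1 to SI4 held 56.4, 43.9, 58.2 and 54.4 CPM and COL1 to COL4 held 36.7, 43.0, 47.1 and 47.6 CPM. SI2 lay among the COL values and the other SI libraries above them. The log2 difference was 0.29 (SE 0.22), positive in 4 of 4 mice, and it turned to -0.46 when libraries were scaled by their size alone, a scaling that moved the median of all genes from -0.09 to -0.82. Relative to that median, Elf1 stood at 0.36. The annotation places 4.85% of the Elf1 exon bases opposite exons of Wbp4, and whether the counting used the strand is not given in the sources used here.

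Ets2 (chr16:95702075-95721051 on the plus strand), a direct substrate and effector of ERK, was higher in COL in each mouse. SI1 to SI4 held 39.3, 28.9, 38.5 and 42.6 CPM. COL1 to COL4 held 97.2, 77.3, 71.9 and 92.4 CPM, with no overlap between the groups. The COL mean of 84.7 ± 12.03 CPM was 2.27 times the SI mean of 37.3 ± 5.87 CPM (SD, n = 4 each). Of the 10 genes it had the least spread among mice relative to its size, with log2 differences from -1.42 to -0.90 and a mean of -1.18 ± 0.23 (SD, n = 4).

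Ets1 (chr9:32636221-32757820 on the plus strand), the close relative of Ets2 and a factor of lymphocytes and endothelium, went the other way. SI1 to SI4 held 15.04, 7.85, 2.43 and 7.05 CPM and COL1 to COL4 held 2.05, 0.497, 1.52 and 4.69 CPM. SI3 lay below COL4, so the groups overlapped, and SI1 was the highest of all. The log2 difference was 1.86 (SE 0.67), and it was 1.39 without SI1 and 2.55 without COL4. T cell markers were higher in SI as well. Their 12 genes summed to 693, 198, 227 and 457 CPM in SI1 to SI4 and to 42.4, 33.3, 37.1 and 155 CPM in COL1 to COL4, and 7 of the 12 were called, all higher in SI. Cd3d was at 0 in COL2, and no marker was at 0 in every library. The highest Ets1 value in each tissue fell in the library with the most T cell marker RNA, SI1 and COL4. In COL both measures ranked the libraries alike, but in SI they did not. SI2, with the lowest T cell sum in SI, held more Ets1 than SI3 and SI4. Endothelial markers, 8 genes, summed to 3.07 to 7.55 CPM in SI and 5.72 to 14.3 CPM in COL. The defining gene Cdh5 was above 0 only in SI2 and COL4. Among those tested only Pecam1 was called, higher in COL (0.441 against 2.89 CPM on average, adjusted p = 0.0248 in edgeR). The part of T cells in the Ets1 difference was not tested.

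**Figure D2:**
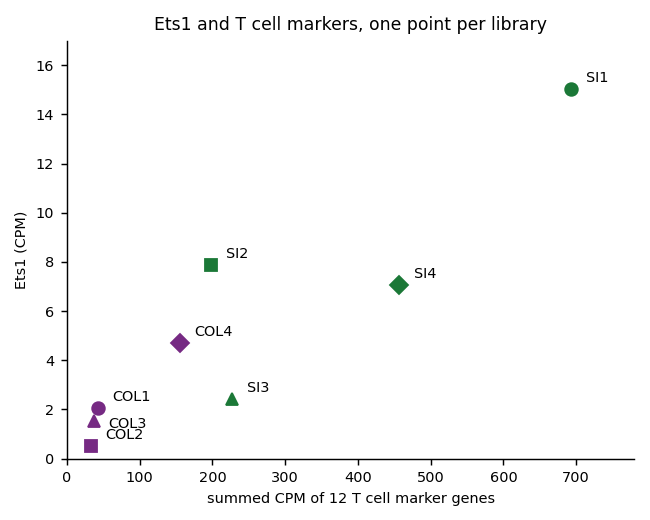
Ets1 level (vertical axis, CPM) against the summed CPM of 12 T cell marker genes (horizontal axis), with 1 point for each of the 4 SI (green) and 4 COL (purple) libraries. SI1 is highest on both axes with 15.04 CPM of Ets1, and COL2 is lowest on both with 0.497 CPM.

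Etv6 and Elk3, factors known as repressors, were described last. Etv6 (chr6:134035700-134270158 on the plus strand) stood at 10.6, 29.4, 24.1 and 15.7 CPM in SI1 to SI4 and at 24.8, 28.8, 16.8 and 19.8 CPM in COL1 to COL4. The SI range enclosed the COL range. The log2 difference was -0.18 (SE 0.34) and turned to 0.05 without SI1, the library with the lowest Etv6 level.

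Elk3 (chr10:93247414-93311135 on the minus strand), a ternary complex factor that joins SRF on DNA, was near the detection limit in SI. It stood at 0.544, 0.665, 0.304 and 0.183 CPM in SI1 to SI4, from 4 to 12 reads, and at 2.14, 1.74, 0.508 and 1.15 CPM in COL1 to COL4, from 19 to 73 reads. COL3 lay below both SI1 and SI2. Elk3 was lower in SI in 4 of 4 mice, with a log2 difference of -1.70 (SE 0.69). Its known expression is in endothelium and in fibroblasts. The endothelial markers, given above for Ets1, were mixed. Pecam1 was called higher in COL, but the median log2 difference of the 5 tested was 0.40, toward SI. The 6 fibroblast markers summed to 0.272 to 5.498 CPM in SI and 1.20 to 6.77 CPM in COL. None of those tested was called, and Lum was above 0 only in COL4. The part of these cells in the Elk3 values was not tested. Opposite exons of Cdk17 cover 6.95% of the Elk3 exon bases.

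Across the 10 genes, 8 had a negative and 2 a positive log2 difference, with a median of -1.39 beside -0.09 over all genes. In the edgeR test 4 of the 10 (Etv4, Etv5, Ets2 and Ehf) passed an adjusted p below 0.05, all higher in COL, where 12.9% of all 14491 genes tested were called in that direction and 28.4% in either. The same 4 were those whose SI and COL ranges did not overlap, against 15.7% of all genes with COL above SI and 33.5% in either direction. Nothing is read from these calls or their counts, since the contrast had chosen the genes. With the mouse as a block the same 4 were called, while DESeq2 also called Ets1 and Elk3, 6 in all, and the alternatives that kept all 10 gave 4 to 6.

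**Figure D3:**
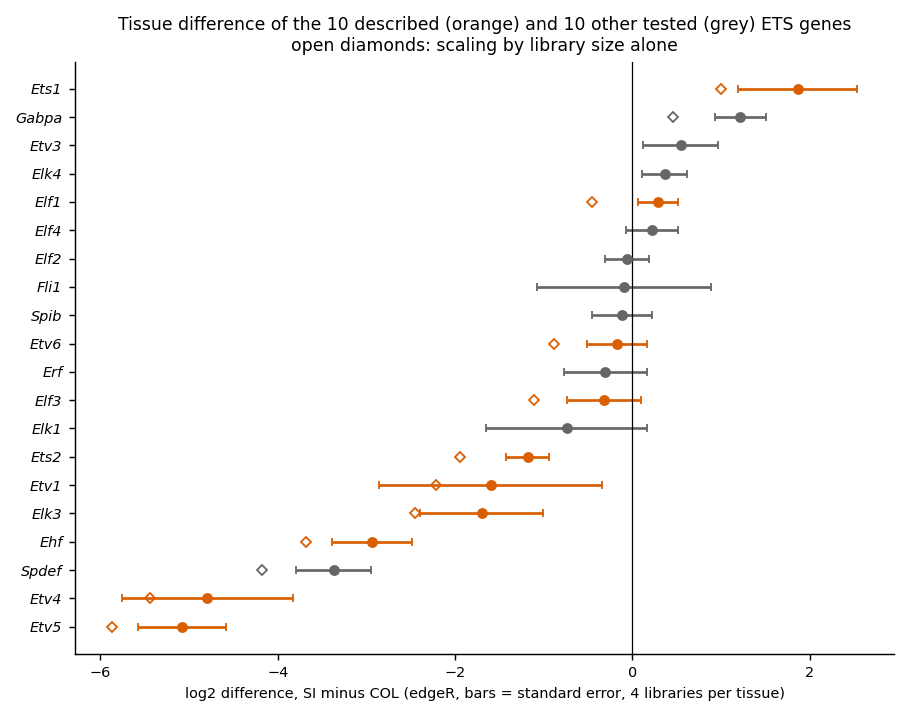
Log2 difference, SI minus COL, of the 10 described ETS genes (orange) and of the 10 remaining ETS genes that were tested (grey), as edgeR estimates with bars of 1 standard error from 4 libraries per tissue. Open diamonds show the estimate after scaling by library size alone for the described and the called genes. Etv5 (-5.08) and Etv4 (-4.79) lie at one end and Ets1 (1.86) at the other.

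To set the genes side by side, CPM were divided by exon length. On this scale Elf3 led all 27 ETS genes in both tissues, at 191 ± 39.0 CPM per kb in SI and 238 ± 122 CPM per kb in COL (SD, n = 4 each), and its range did not touch that of the next gene. It made up 72.7 to 83.1% of the length-scaled ETS sum in SI libraries and 45.5 to 69.1% in COL libraries. In SI, Elf1 (7.91 CPM per kb), Ehf (7.31) and Ets2 (6.46) followed with overlapping ranges. In COL, Ehf came second at 56.1 ± 6.85 CPM per kb, separate from Spdef, the goblet cell factor, at 37.7 ± 16.0 CPM per kb, and made up 11.5 to 19.5% of the ETS sum, compared with 0.765 to 4.79% in SI.

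Etv5 and Etv4 changed place most in that order. Etv5 ranked 16 of 27 in SI (0.218 CPM per kb) and 5 in COL (7.27 CPM per kb), where its range overlapped that of Elf1 (6.47 CPM per kb). Etv4 ranked 20 in SI (0.0673 CPM per kb) and 13 in COL (1.88 CPM per kb). Etv1 ranked 21 in both tissues. Etv6 was at rank 10 in SI and 8 in COL, Ets2 at rank 4 in both, Ets1 at 13 and 18, and Elk3 at 19 and 17, and apart from Elf3 in both tissues and Ehf and Ets2 in COL, each of the 10 overlapped its next lower neighbour.

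**Figure D4:**
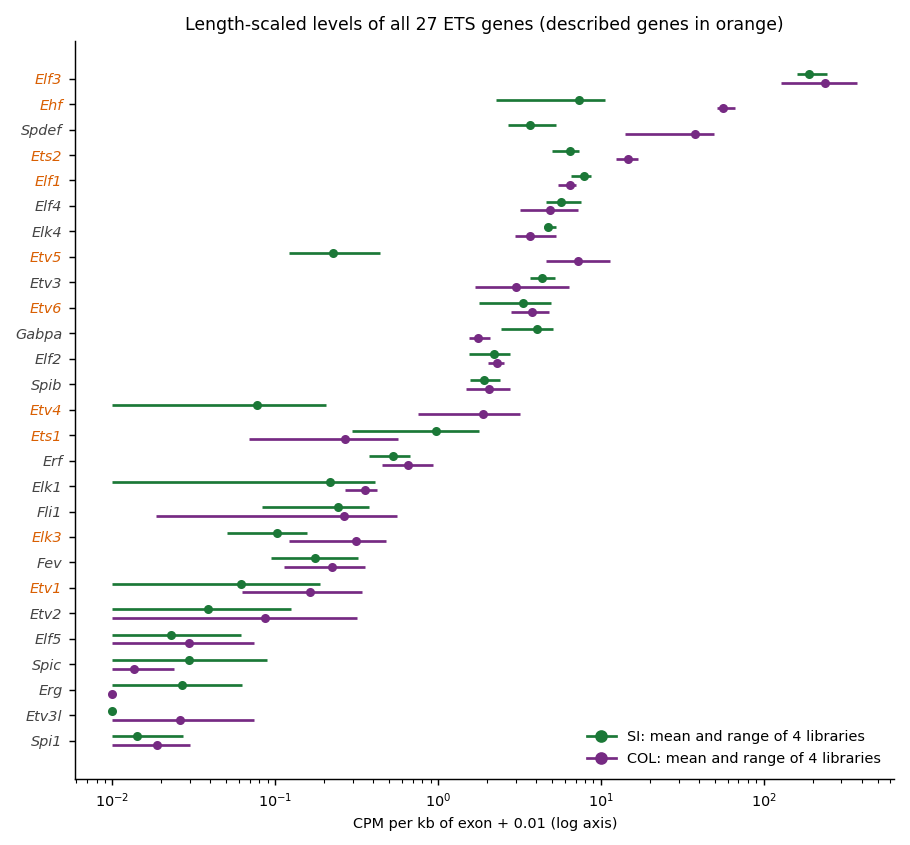
Length-scaled level, CPM per kb of exon plus 0.01 on a log axis, of 27 ETS genes, with the described genes in orange. Points are means and lines the range of 4 libraries, SI in green and COL in purple. Elf3 leads in both tissues, and Etv5 moves from 0.218 CPM per kb in SI to 7.27 CPM per kb in COL.

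Of the 17 remaining ETS genes, 10 were expressed enough to be tested and 2 were called by edgeR, where 28.4% of all genes tested were called. Gabpa, an ETS activator of mitochondrial and ribosomal genes, rose in SI with 26.7, 13.8, 28.9 and 22.7 CPM in SI1 to SI4 and 9.51, 9.57, 8.77 and 11.7 CPM in COL1 to COL4 (log2 difference 1.22, SE 0.29, adjusted p = 0.00844 in edgeR). Its call was lost when libraries were scaled by size alone (adjusted p = 0.262 in edgeR, the highest of 17 alternatives, with 0.00147 in DESeq2 the lowest). Opposite exons of Atp5j cover 6.98% of the Gabpa exon bases, and 4.07% of its 50-base stretches also occur in Atp5j. Atp5j had up to 14609 counts in a library and Gabpa up to 589. Spdef was higher in COL, at 6.21, 6.59, 12.2 and 8.61 CPM in SI and 99.0, 32.6, 102 and 114 CPM in COL (log2 difference -3.37, SE 0.42, adjusted p = 0.000146 in edgeR). Goblet cell markers beside it were mixed, with Muc2, Agr2 and Atoh1 called higher in COL and the other 4 of 7 not called, and their part in the Spdef difference was not tested. The best expressed of the others were Etv3 (0.54), Elf4 (0.22), Elk4 (0.36) and Elf2 (-0.06 on the log2 scale), none of them called in the main test, although Elk4 was called with the mitochondrial share as a covariate and Etv3 without COL2. Their median log2 difference, over the 10 tested, was -0.08.

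Genes that ERK signalling drives, PEA3 genes aside, did not share 1 direction. Of 16 feedback inhibitors and targets, 6 were called by edgeR, where 28.4% of all genes tested were called. Dusp6, a phosphatase of ERK, rose in SI with 140, 63.4, 127 and 136 CPM against 17.9, 6.46, 32.3 and 34.2 CPM in COL (log2 difference 2.36, SE 0.48, adjusted p = 0.00374 in edgeR). Dusp5 (1.80, SE 0.38) and the receptor Epha2 (2.57, SE 0.32) were also higher in SI. The ephrin receptor Epha4 (-2.97, SE 0.74), the RAS inhibitor Spred1 (-1.44, SE 0.44) and the AP-1 subunit Fosl1 (-3.90, SE 1.12) were higher in COL. Epha4 moved to -4.42 without SI2 and Fosl1 to -5.79 without SI3. Spred1 lost its call without SI3, COL1, COL2 or COL3 and Fosl1 without SI4, COL1 or COL4, with adjusted p-values over the alternatives of 0.00355 to 0.0732 and of 0.00135 to 0.0718. The best expressed of those not called were Myc (-0.86), Spry2 (-0.82), Ccnd1 (-0.82) and Spred2 (0.09). DESeq2 called 7 of the 16, adding Spry2, and limma-voom 9, adding Spry2, Phlda1 and Ccnd1. These additions were all higher in COL. Over all genes DESeq2 called 5118 and limma-voom 4691. The median of the 16 was -0.84.

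SRF, the partner of Elk3, and its immediate early targets gave 1 call among the 10 of 12 genes that could be tested, where 28.4% of all genes tested were called. Fos had 230, 247, 129 and 381 CPM in SI1 to SI4 and 55.9, 53.1, 39.3 and 89.2 CPM in COL1 to COL4 (log2 difference 2.05, SE 0.39, adjusted p = 0.00242 in edgeR). Srf stood at -0.39, and the best expressed of the others were Mcl1 (-0.14), Mrtfb (-0.41), Mrtfa (-0.17) and Ier2 (-1.04), none called in the main test. DESeq2 also called Ier2, higher in COL. The count rose to 3 without COL3 and to 2 without COL4. The median was -0.15.

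**Figure D5:**
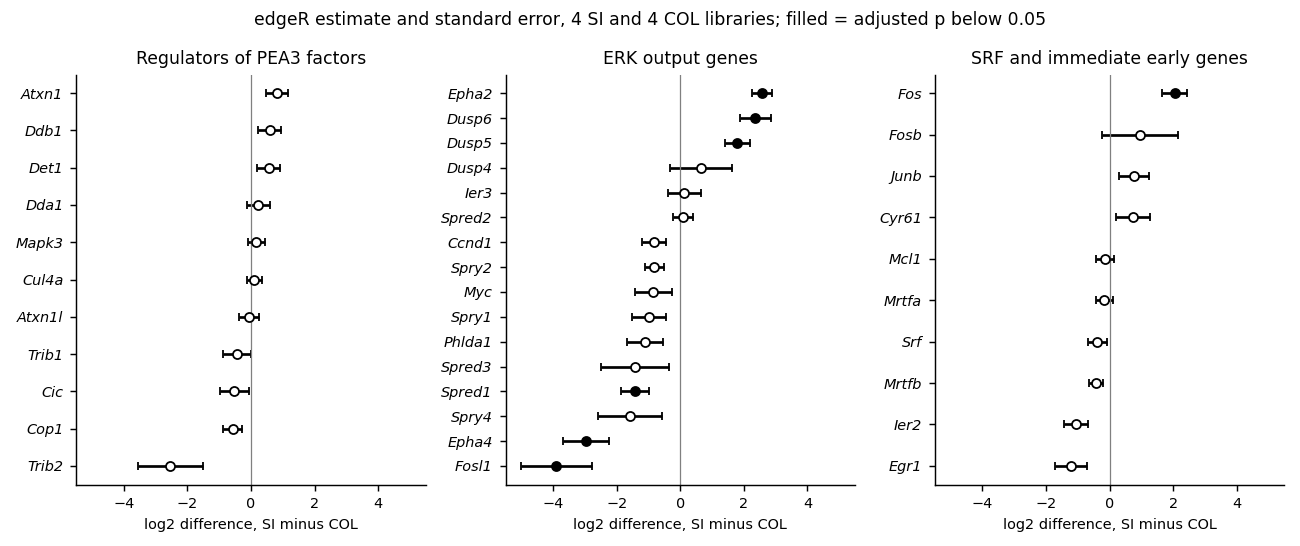
Log2 difference, SI minus COL, with standard error (edgeR, 4 libraries per tissue) of the regulators of PEA3 factors, the ERK output genes and the SRF and immediate early genes, 1 panel each. Filled points have an adjusted p below 0.05, which holds for 0 of 11, 6 of 16 and 1 of 10 genes tested.

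Sex was a contrast that had not chosen the genes. With tissue in the fit, none of the 10 was called between female and male mice by edgeR, where 5 of 14491 genes (0.0345%) were called and 799 had an unadjusted p below 0.05. DESeq2 and limma-voom called none of the 10 either. Ets1 alone had an unadjusted p below that level, with female above male by 1.39 on the log2 scale (SE 0.54, adjusted p = 0.861 in edgeR). The other log2 differences, female minus male, ran from -1.57 (Etv1, SE 1.23) to 0.31 (Ets2, SE 0.24), and adjusted p-values from 0.861 to 0.993. In SI, both female libraries had a low and both male libraries a high mitochondrial share, so there sex and that share cannot be told apart. The 4 libraries of each sex came from 2 mice, so the p-values take SI and COL of 1 animal as independent.

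A tissue difference that itself differed by sex was not found for any of the 10. The interaction was called for 0 of 14491 genes (0%) by edgeR, with 761 at an unadjusted p below 0.05, for 0 by limma-voom, for 11 by DESeq2 and for 78 by edgeR with no filter, none of them among the 10. Etv4 came nearest, with an interaction of -3.48 on the log2 scale (SE 1.82, adjusted p = 0.909 in edgeR), on 0 to 12 reads per SI library. Its mean SI minus COL difference in log2 CPM was -5.51 in female and -3.82 in male mice. For Ehf the interaction was -1.355 (SE 0.767, adjusted p = 0.909 in edgeR), with mean differences of -3.92 in female and -2.37 in male mice.

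The libraries of 1 tissue also varied together for some genes. After the tissue mean was taken off, Etv4 was followed most closely by Greb1 (Pearson r = 0.985) and Tagap1 (0.974) over the 8 libraries, out of 7803 genes with a mean log2 CPM of at least 3. For Etv5 these were Tgfbr1 (0.946) and Aida (0.927). For Elf3 they were Psmb10 (0.995), a subunit of the immunoproteasome, and Yipf2 (0.990). For Ehf they were Hpd (0.992) and Hmmr (0.991), the latter a gene of dividing cells. These are the highest values of a search, the libraries share differences in depth and mitochondrial share, and no p is given. With 0 to 12 Etv4 reads and 9 to 29 Etv5 reads per SI library, counting error also weighs on their correlations.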

How the data were processed

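The authors sequenced RNA of crypts from 4 mice (4 SI and 4 COL libraries). Reads were filtered with Trimmomatic 0.36, aligned with STAR 2.5.2b to mm10 and counted per gene, with versions per the submitters' processing notes, which also list mm9. The deposited values are raw counts per Ensembl gene, 1 column per library, with 15969428 to 32908060 counts each. Neither the annotation release nor strandedness of the counting is given in the sources used here. GENCODE vM21 (GRCm38) supplied symbols and positions and matched 45143 of 45706 genes, and promoter windows from RefSeq (GRCm38.p6). The 10 genes, the gene lists and the tests were chosen with earlier results of these data known.

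SI and COL were compared with edgeR 4.0.16 (R 4.3.3), quasi-likelihood test, TMM scaling, filterByExpr (about 10 counts in enough libraries, 15 in all) and Benjamini-Hochberg adjustment over 14491 genes at 0.05. Methods of the study name limma without settings. Since the deposited values are counts, edgeR was the main test. Standard errors came from the coefficient and its F statistic. Female and male mice were compared with tissue in the model, and with a tissue by sex interaction. CPM are counts relative to the TMM-scaled library size, and exon lengths are unions over transcripts. SI and COL libraries are paired by the donor mouse in the labels, and the main fit has no term for it. The alternatives were scaling by library size, DESeq2 1.42.0, limma 3.58.1 (voom), the mouse as a block, no filter, at least 10 counts in every library, the mitochondrial share as a covariate, removal of the 18 genes over 1% of any library, COL libraries alone for the sexes, and leaving out each library. Fits were tested on simulated data. The genes named are the 10, in the other lists those past the threshold and up to 4 more with the highest mean CPM, and the 2 genes most like Etv4, Etv5, Elf3 and Ehf. From the list of PEA3 regulators, 1 gene is not reported here. Organoid libraries of the study were not analysed here.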

Additional observations from a re-analysis of the deposited data

Results flagged for a closer look

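Among 54 groups of 4 libraries checked, 4 held a highest or lowest library that stood apart from the other 3, where chance flags about 1 in 20 groups. Ehf in COL4 was the highest of the COL libraries at 370 CPM, with a gap to the next library of 0.873 of the range. The next 3 values, 289 to 298 CPM, lay close together. Elk4, a ternary complex factor like Elk3, was highest in SI3 at 34.1 CPM with a gap of 0.844 of the range. Spdef was lowest in COL2 at 32.6 CPM, the library with the highest mitochondrial share of 50.8%, with a gap of 0.886. Dusp6 was lowest in SI2 at 63.4 CPM, also a library of high mitochondrial share (28.3%), with a gap of 0.878. The part of the mitochondrial share in these values was not tested.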

How the results depend on the processing

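Scaling by library size alone moved the median of all genes to -0.82, the median of the 10 ETS genes from -1.39 to -2.08 (-1.26 relative to all genes), and the calls among all genes from 2253 higher in SI and 1863 in COL (4116) to 1115 and 4788 (5903). It gave 1 call among the remaining ETS genes, 4 among the PEA3 regulators (Cic, Cop1, Trib1 and Trib2, all higher in COL), 10 among the ERK output genes and 7 among the SRF genes, and it turned Elf1 to -0.46. With at least 10 counts in every library, which left 5 of the 10 ETS genes, their median was -0.42. The 11 PEA3 regulators, with 0 calls in the main test, gave 1 with DESeq2, with limma-voom, with no filter and with the mitochondrial share as a covariate, and 2 with limma-voom and the mouse as a block. The SRF genes gave 2 calls with DESeq2, with at least 10 counts in every library and without the genes over 1%, and 3 with no filter. The ERK output genes gave 7 with DESeq2, with the mitochondrial share as a covariate and without the genes over 1%, and 9 with limma-voom. Spry2 was among the calls in each of these. Between female and male mice, DESeq2 called 32 genes, no filter 207 and at least 10 counts in every library 0 (563 at an unadjusted p below 0.05 in edgeR), none of them among the 10.

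Leaving out each library gave medians of -1.56 to -1.10 for the 10 ETS genes (-1.10 without COL2) and counts of 3167 to 4480 over all genes, 2 to 3 for the remaining ETS genes, 0 to 1 for the PEA3 regulators, 4 to 7 for the ERK output genes, 1 to 3 for the SRF genes and 5 to 6 between the sexes. The PEA3 regulators had 1 call without SI2 or COL2, and the SRF genes 3 without COL3 and 2 without COL4. Remaining ETS genes gained Etv3 without COL2, a count of 3. Etv6 ran from -0.41 to 0.052, the positive value without SI1, and Elf3 turned to 0.27 within the libraries of high mitochondrial share. Elk4 was called among the remaining ETS genes with the mitochondrial share as a covariate, again a count of 3. The ratio of summed PEA3 CPM, COL over SI, was 17.3 to 39.8 (39.8 without SI2), a check chosen after seeing the data. The cause of these moves was not tested.

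The replicate block for the mouse left 4072 calls among all genes and moved the median of the 10 ETS genes to -1.43. It left the counts of calls at 2, 0, 6 and 1 in the remaining ETS genes, PEA3 regulators, ERK output genes and SRF genes, with the same genes called in these lists and among the 10. Of the 4116 calls over all genes, 3743 were shared with the block fit. At 9 to 29 reads of Etv5 and 0 to 12 of Etv4 per SI library, and 0 to 71 of Etv1 in any library, depth limits how closely their SI levels can be stated.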
